A study of Homo sapiens with 12 samples.

Results

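The nuclear genes of oxidative phosphorylation were followed across 3 deposited tables of RNA modification and protein binding in HEK293T, a human embryonic kidney cell line transformed with adenovirus DNA and carrying the SV40 large T antigen. Members were the genes whose symbol begins with NDUFA, NDUFB, NDUFC, NDUFS, NDUFV, UQCC, UQCR or ATP5, is SDHA to SDHD, or begins with COX4 to COX8, in any of the tables. This gave 63 genes, set beside 5113 protein-coding genes with an entry of any kind. Of the 63, 1 (NDUFS3) kept no entry of its own and is not among the 5113, but it stays in the counts out of 63. The table of differential m6A peaks compares cells given siRNA against TRMT10A with cells given control siRNA, with 2 pulldown and 2 input samples for each siRNA. The other tables are CLIP site lists from cells that overexpressed TRMT10A (3 samples) or FTO (1 sample), recovered with anti-Flag beads after ultraviolet crosslinking and RNase T1 digestion. CLIP therefore describes the overexpressed, tagged protein, and no CLIP control library was used here. None of the tables gives values per library, so read depth is unknown, the spread between replicates could not be measured, and all counts, shares and medians below are computed from the authors' lists.

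Oxidative phosphorylation takes place in the inner mitochondrial membrane. Complexes I (NADH dehydrogenase), III (cytochrome bc1) and IV (cytochrome c oxidase) pass electrons to oxygen and pump protons, complex II (succinate dehydrogenase) feeds in electrons from the tricarboxylic acid cycle, and complex V (ATP synthase) uses the proton gradient to make ATP. Most subunits are encoded in the nucleus, translated in the cytosol and imported. TRMT10A methylates a guanosine of tRNAs at position 9. FTO is a demethylase that acts on N6-methyladenosine (m6A), a methylated base of mRNA. CLIP marks RNA positions crosslinked to a protein, and m6A-seq recovers methylated RNA fragments with an antibody and compares them with the input RNA. The tables hold no RNA level for TRMT10A, so the depth of its knockdown could not be checked.

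The symbol rule takes in more than subunits of the finished complexes. Of the 63 genes, 55 encode structural subunits and 8 do not. The 8 are the complex I assembly factors NDUFAF2, NDUFAF3 and NDUFAF6, the complex III assembly factors UQCC1 and UQCC3, the supercomplex factor COX7A2L, the ATP synthase inhibitor ATP5IF1 and UQCRHL, an intronless copy of UQCRH. NDUFA4 is a complex IV subunit in spite of its name and is counted there. By complex, 27 genes belong to complex I, 3 to complex II, 9 to complex III, 11 to complex IV and 13 to complex V. The reference annotation holds 100 protein-coding genes whose current symbol matches the rule, and 38 of them had no entry in the tables, 29 of these subunits. NDUFS3, a core subunit of complex I, is a member only by name: its single TRMT10A site (chromosome 11, 47565911 to 47565915, height 22) lies outside the gene, in exon 1 of 2 of the neighbouring PTPMT1, and it was counted for no member.

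TRMT10A sites were found in 50 of the 63 genes (79.4%, 95% Wilson interval 67.8 to 87.5%, which covers counting error only), against 49.9% of all protein-coding genes with an entry. FTO clusters were found in 44 (69.8%, 57.6 to 79.8%), against 60.7% of all. Both proteins had sites in 36 (57.1%, 44.9 to 68.6%), against 27.3% of all. Differential m6A peaks were listed for 12 genes (19.0%, 11.2 to 30.4%), against 33.6% of all. The interval for FTO covers the share of all genes, and the other 3 do not. These shares are tied together, since a gene is counted only through an entry in at least 1 table. A set that enters mostly through CLIP sites therefore tends to show a lower share of m6A peaks. Of the 12 genes with a peak, 4 had no CLIP site, and 20.3% of all protein-coding genes with a CLIP site had a peak. The low m6A share cannot be read apart from the high CLIP shares. The tables hold no RNA level per gene, so the part of mRNA abundance in these shares was not tested.

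**Figure D1:**
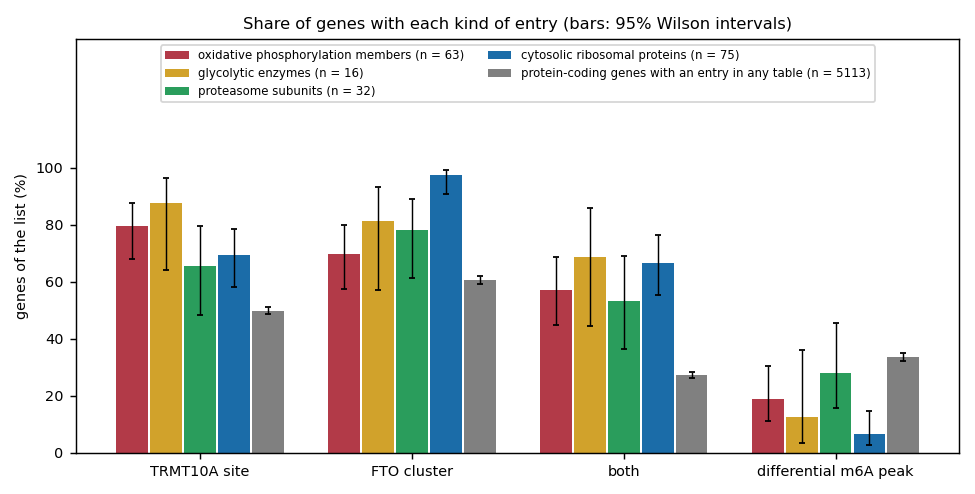
Share of genes (y axis, percent) with a TRMT10A site, an FTO cluster, both, or a differential m6A peak, for oxidative phosphorylation genes, 3 comparison lists and all protein-coding genes with an entry in any table. Thin bars are 95% Wilson intervals, which cover counting error only. The oxidative phosphorylation genes stand at 79.4% for TRMT10A and 57.1% for both proteins, above all genes at 49.9% and 27.3%.

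The same shares were counted in 3 other gene lists. Among glycolytic enzymes with an entry, 14 of 16 had a TRMT10A site and 11 of 16 had sites of both proteins. Among proteasome subunits the counts were 21 and 17 of 32, and among cytosolic ribosomal proteins 52 and 50 of 75. The intervals of all 3 lists overlap those of the oxidative phosphorylation genes for both measures. For FTO, 73 of 75 ribosomal protein genes had a cluster (97.3%, 90.8 to 99.3%), above the interval of the oxidative phosphorylation genes. Differential m6A peaks were listed for 2 of 16 glycolytic enzymes (12.5%, 3.50 to 36.0%) and 5 of 75 ribosomal protein genes (6.67%, 2.88 to 14.7%). For proteasome subunits the count was 9 of 32 (28.1%, 15.6 to 45.4%). These intervals overlap that of the oxidative phosphorylation genes. The glycolytic and proteasome intervals also hold the 33.6% of all genes, so they do not show a low share. The ribosomal protein interval lies below it, so a low m6A share is not particular to the oxidative phosphorylation genes.

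Among the members, complex IV was the most fully covered: all 11 genes had an FTO cluster and 10 a TRMT10A site. Genes are members only through an entry, however. The annotation holds 17 complex IV genes whose current symbol matches the rule, a count without NDUFA4. Over all protein-coding genes with an entry, 60.7% had an FTO cluster, 49.9% a TRMT10A site and 27.3% both. In complex I, 21 of 27 genes had a TRMT10A site, 19 an FTO cluster and 15 both. Complex V had 10, 8 and 7 of 13, complex III 7, 4 and 3 of 9, and complex II 2, 2 and 1 of 3. These groups are small and were not tested against each other.

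Complex IV also has paired isoforms, of which one is widely expressed and the other is known from particular tissues such as heart, muscle, lung or testis. The widely expressed COX4I1, COX6A1, COX6B1, COX7A2, COX7B and COX8A each had at least 1 CLIP site. Their 6 tissue-restricted counterparts COX4I2, COX6A2, COX6B2, COX7A1, COX7B2 and COX8C had no entry in any table. Lacking an entry was common, since 38 of the 100 annotated genes that match the rule had none. COX5B, a complex IV subunit outside these pairs, was among them. RNA levels of these pairs in the cells were not used here, and the contrast was not tested.

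The height of a TRMT10A site is the authors' score and is used here only to rank sites within their list. The 89 sites of the members had a median height of 20.0 and a range of 16 to 49, and the 5450 sites of all protein-coding genes had the same median of 20.0 and a range of 16 to 123. Of the members' sites, 43.8% were higher than the list median, against 44.6% of all. Among genes with an entry, the members thus had sites more often, but these sites were not higher. Of the 50 genes, 29 had a single site, and the mean was 1.78 sites per gene, against 2.19 over all genes with a site.

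Among complex I genes the highest TRMT10A site was in NDUFA11, an accessory membrane subunit, at a height of 36 (chromosome 19, 5896493 to 5896494, exon 3 of 4). NDUFB8 followed with a height of 32 (chromosome 10, 100529397 to 100529399, exon 2 of 5) and lower sites at 19 and 18. NDUFB2 had sites of 29 and 28 in exon 2 and exon 3 of 4. NDUFA13, also known as GRIM-19, had 3 sites in neighbouring exons 2, 3 and 4 of 5, at 18, 20 and 24. Sites of NDUFA11 and NDUFA13 are also listed under the neighbouring genes FUT5 and YJEFN3, and those of NDUFB8 under SEC31B, whose spans do not hold them.

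Of the core subunits of complex I, which carry the flavin and iron-sulphur centres, NDUFV1 and NDUFS8 had sites of both proteins. NDUFV1, which binds NADH, had TRMT10A sites at 25 and 21 and 4 FTO clusters of 2 to 3 events. NDUFS8 had a TRMT10A site at 20 and an FTO cluster with 7 events. NDUFS1 had an FTO cluster with 4 events and no TRMT10A site. NDUFS7 and NDUFV2 were among the subunits without an entry.

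Complex II had few and low sites. The iron-sulphur subunit SDHB had a TRMT10A site at 17 in exon 6 of 8 and an FTO cluster with 2 events. The membrane anchor SDHC had a TRMT10A site at 19 in exon 5 of 6. The flavoprotein SDHA had an FTO cluster with 2 events and no TRMT10A site.

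In complex III, UQCR11, a small membrane subunit, had a single TRMT10A site at 42 (chromosome 19, 1599489, exon 2 of 3), which is also listed under the neighbour MBD3. UQCRC1, one of the large core proteins, had 4 sites at 25, 20, 20 and 18 in exons 11, 13, 7 and 2 of 13. Its partner UQCRC2 had 1 site at 22. UQCRH, the hinge protein, had a site at 17 and its copy UQCRHL one at 16. These genes are near-identical in sequence, so reads could have been placed at either, and both values are uncertain.

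In complex IV, COX8A had a single site at 39 in its 3' UTR (chromosome 11, 63976356 to 63976357), which is also listed under OTUB1. NDUFA4 had 1 at 33 in exon 2 of 4 and 1 at 17 (chromosome 7, 10940051 to 10940053). COX4I1, the widely expressed form of subunit 4, had 4 sites at 25, 22, 19 and 17 in exons 5, 4, 3 and 2 of 5.

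The lower NDUFA4 site is shown because it lies at the beginning of the gene, where RefSeq sequence (GRCh38.p14, chr7:10940038-10940067, minus strand) was at hand, with the crosslinked site in capitals.
NDUFA4: tgccgcaaacatgcTCCgccagatcatcgg
The letters ATG stand just before the site in this stretch.

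Complex V held the highest site of all members. ATP5F1B, the catalytic beta subunit of ATP synthase, had a TRMT10A site at 49 (chromosome 12, 56640076, exon 8 of 10) and lower sites at 19, 18 and 16 in exons 7, 9 and 10. The alpha subunit gene ATP5F1A had the most sites, 7, at 33, 27, 24, 23, 21, 20 and 18, in exons 9, 3, 5, 7, 2, 10 and 8 of 12. A further site inside ATP5F1A, at 58 (chromosome 18, 46089346), lies in an intron on the lysine tRNA gene TRK-CTT6-1 and was counted for the tRNA. The c-ring subunit genes ATP5MC3 and ATP5MC2 had 5 sites at 17 to 23 and 3 sites at 21 to 29. ATP5IF1, which inhibits ATP hydrolysis by the enzyme, had sites at 29 and 18. Of the remaining subunits of the F1 head, ATP5F1C had sites at 18 and 16 and ATP5F1D at 20 and 18, both without an FTO cluster, and ATP5F1E had an FTO cluster with 3 events and no TRMT10A site.

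FTO clusters are ranked by the authors' count of conversion events, the sequence changes that crosslinking leaves in reads. The 100 clusters of the members had a median of 3.00 events (range 2 to 29), and the 7990 clusters of all protein-coding genes a median of 2.00 (range 2 to 4320). More than 3.00 events, the median of the whole list, were counted in 34.0% of the members' clusters and in 26.2% of all. Counts at this level are close to the lowest value of 2 in the list, and only 1 library lies behind them.

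The cluster with the most events was in COX7A2L, which encodes a factor that joins complexes III and IV into supercomplexes. It had 29 events over 27 bases of the 3' UTR (chromosome 2, 42350995 to 42351021), while the other COX7A2L clusters had 2 each. COX7C followed with 11 events in coding sequence, then COX6A1 and NDUFC1 with 10 each in their 3' UTRs. The strongest cluster had 7 events in NDUFB8, NDUFS8, COX7A2 and ATP5F1B, and 6 in NDUFA10, NDUFB7, ATP5F1A and ATP5MC3. Apart from COX7A2L, no member gene had a cluster above 11.

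By number of clusters the order was different. ATP5F1B had 14 clusters with 2 to 7 events, together 55 events, and ATP5F1A had 8 with 2 to 6, together 26. UQCRC1 had 7 clusters with 2 to 4 events, all in coding sequence. NDUFB8, NDUFV1 and COX6A1 had 4 each. ATP5F1A, ATP5F1B and UQCRC1 are thus among the 5 members with the most sites in each CLIP list. Of the 44 genes with a cluster, 22 had only 1, and the mean was 2.27 per gene against 2.60 over all genes with a cluster.

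RefSeq sequence was at hand only around the starts of genes, and 2 FTO clusters of members lie fully within such windows. They are shown as examples of where FTO crosslinked near the 5' end of short complex I mRNAs. Capitals mark the cluster, for NDUFB11 all 16 bases (2 events, chrX:47144657-47144686, minus strand) and for NDUFA1 the first 30 of 39 (3 events, chrX:119871899-119871928, plus strand; both GRCh38.p14).
NDUFB11: atctgtcATGGCGGCTGGGCTGTttggttt
NDUFA1: TAACGGGGCAGAGATGTGGTTCGAGATTCT
Both stretches hold the letters ATG, as do 27.1% of the last 30 bases of all RefSeq windows on the sense strand. The windows were chosen by what was at hand, and so few stretches cannot be set against that share. Such windows say nothing of sites elsewhere in the mRNAs.

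TRMT10A sites of the members were mostly labelled exon. This label depends on the annotated transcript and does not always mean outside a UTR. The NDUFA12 site labelled exon, for example, lies in an FTO cluster labelled 3' UTR. Of the 89 sites, 78 were annotated as exon (87.6%, 95% Wilson interval 79.2 to 93.0%), against 64.2% (62.9 to 65.5%) of the sites of all protein-coding genes. Sites in 3' UTRs were 4.49% (1.76 to 11.0%) against 14.3%, and in introns 2.25% (0.618 to 7.83%) against 12.4%. The intervals for exon, 3' UTR and intron do not reach the shares of all genes. They treat the sites as independent, although several come from 1 gene (ATP5F1A gives 7 of the 89), and so may be too narrow. Lengths of UTRs and introns, which set how much of each region a gene offers, were not used here.

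The intronic sites were both in assembly factor genes and were low. UQCC1 had one at 18 within a stretch annotated as a repeat of 7SK, and NDUFAF6 one at 16 within a repeat annotated as FAM. Among sites in exons of transcripts with several exons, 72.1% lay in an internal exon (61.8 to 80.5%), 16.3% in the last (9.95 to 25.5%) and 11.6% in the first (6.44 to 20.1%). Over all protein-coding genes these shares were 62.9%, 27.5% and 9.65%.

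For FTO clusters, the shares in coding sequence and 3' UTRs lay close to those of all genes. Coding sequence held 61.0% of the members' clusters (51.2 to 70.0%) against 59.2% of all, and 3' UTRs 27.0% (19.3 to 36.4%) against 28.3%. Introns held 2.00% (0.550 to 7.00%) against 8.56%, outside the interval. This interval too treats clusters as independent, although ATP5F1B alone gives 14 of the 100. No region was given for 10.0% (5.52 to 17.4%) against 2.42%, so up to 10 of the 100 clusters could belong to any of these classes.

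**Figure D2:**
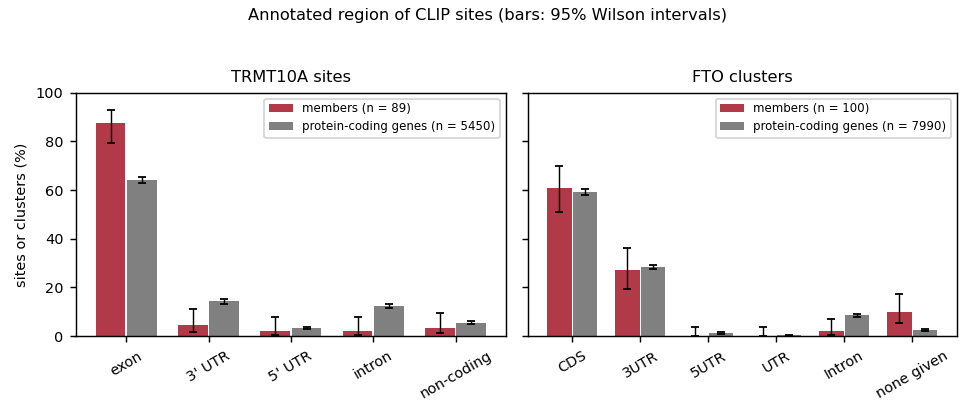
Share of TRMT10A sites (left) and FTO clusters (right) in each annotated region (y axis, percent), for the oxidative phosphorylation genes and for all protein-coding genes, with region names as the authors' lists give them and 95% Wilson intervals. Exons hold 87.6% of the members' TRMT10A sites against 64.2% of all, while coding sequence holds 61.0% of FTO clusters against 59.2%.

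Whether both proteins bound the same places was asked first over all FTO clusters, then over those of the 36 genes with sites of both. Of all 100 FTO clusters of the members, 12 overlapped a same-strand TRMT10A site by 1 base or more (12.0%, 7.00 to 19.8%). The share was 8.01% for the clusters of all protein-coding genes, inside that interval. Both shares include clusters of genes without a TRMT10A site. Among the 89 clusters of the 36 genes it was 13.5%, against 13.0% over all genes with both. The 12 clusters lie in 11 genes, 2 from complex I, 1 from complex III, 4 from complex IV and 4 from complex V. By region, 9 were in coding sequence, 2 in 3' UTRs and 1 had no region given.

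The shared position with the highest TRMT10A site was that of ATP5F1B, where the site at 49 lay in an FTO cluster with 4 events (chromosome 12, 56640040 to 56640084). At UQCR11 the site at 42 fell into a cluster with 2 events (chromosome 19, 1599464 to 1599490). COX7C had the opposite balance, with 11 events around a site at 18 (chromosome 5, 86619397 to 86619456). The 12 shared positions had heights of 18 to 49 and 2 to 11 events.

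The other shared positions of complexes I and IV had TRMT10A heights of 20 to 23. NDUFA1, an accessory subunit needed for complex I assembly, had a site at 20 and 4 events. NDUFA12 had a site at 23, labelled exon, and 2 events in a cluster labelled 3' UTR. COX4I1 had 22 and 5, COX6A1 20 and 2, and COX6B1 23 and 5. In complex V, ATP5F1A had 2 shared positions, with 24 and 4 and with 18 and 3, and ATP5MC3 had 19 and 6 in its 3' UTR.

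The position shared in ATP5MG, a membrane subunit of ATP synthase, could be read from RefSeq sequence. The TRMT10A site at 18 (chromosome 11, 118401651 to 118401652) lies in an FTO cluster with 2 events (118401624 to 118401669). Shown is chr11:118401626-118401655 of the plus strand (GRCh38.p14), with the bases of the TRMT10A site in capitals.
ATP5MG: agccggcggttcggggcgacggactCTcca
The letters GGACT, the most frequent form of the m6A consensus, stand directly before the site, but the authors' deposited table lists no differential m6A peak for this gene. Of the last 30 bases of all 35116 RefSeq windows, the same place relative to the gene start as here, 2.87% hold these letters on the sense strand and 5.30% on either strand. This is 1 of 4 stretches at CLIP sites that could be read.

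Clusters within 100 bases lay beside a TRMT10A site more often than upon one, as over all genes with both. The site was on the 3' side of 15 and the 5' side of 13, and 12 shared a base. Over all genes these numbers were 514, 594 and 647. A flank of 100 bases is also far wider than a site. In the 36 genes with sites of both proteins, 40 of 89 FTO clusters were within 100 bases of a TRMT10A site of the same gene (44.9%, 35.0 to 55.3%). These 40 include the 12 that share a base. The share over all genes with both was 35.3%, inside that interval. The share at a gap of 1 to 25 bases was 21.3%, against 13.1%, while that of shared bases was 13.5%, against 13.0%. The median gap along the genome was 222 bases, against 572. These clusters are not independent of each other, since genes with many clusters contribute most of them, and gene lengths were not matched.

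**Figure D3:**
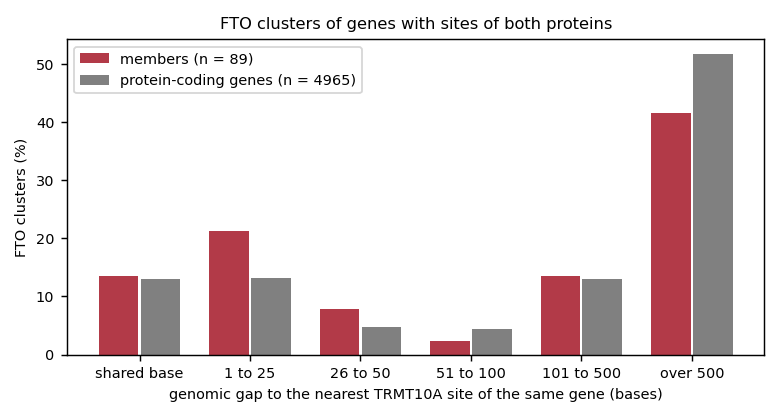
FTO clusters (y axis, percent) of genes with sites of both proteins, by the gap in bases of genomic sequence to the nearest TRMT10A site of the same gene (x axis, bins of unequal width), for the 89 clusters of the members and the 4965 of all protein-coding genes. Gaps of 1 to 25 bases hold 21.3% of the members' clusters against 13.1%, and gaps over 500 bases 41.6% against 51.7%.

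TRMT10A sites lay on either side of the clusters. Of the clusters within 100 bases that shared no base, the TRMT10A site lay on the 3' side in 15 and on the 5' side in 13, and over all genes 46.4% were on the 3' side. In COX7A2L the site at 16 lay 16 bases to the 3' side of the cluster with 29 events. In NDUFB8 the site at 32 lay 9 bases to the 3' side of the cluster with 7 events, and in COX8A the site at 39 lay 7 bases to the 3' side of a cluster with 2. In UQCRC1 the 3 close sites were all on the 5' side, at 7, 16 and 19 bases.

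Differential m6A peaks of the members were few, as in the ribosomal protein list, and small. All 12 genes had 1 peak each. A positive log2 fold change was given for 9 peaks of the authors' deposited table and a negative one for 3, so that 9 of 63 genes had a positive peak, against 22.5% of all protein-coding genes with an entry, and 3 of 63 a negative peak, against 12.1%. The headers do not say which condition is the numerator, and a positive value means more m6A after TRMT10A knockdown only if the knockdown was divided by the control. The median absolute log2 fold change of the 12 peaks in the authors' deposited table was 0.35, against 0.63 over the 1947 peaks of protein-coding genes. None of the 12 reached an absolute value of 1, as 22.3% of all peaks did. All adjusted p-values are the authors', from a table that lists only peaks at 0.05 or below.

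The enrichment of these peaks was also lower. In the authors' deposited table the median fold enrichment of pulldown over input was 2.10 for the members, against 4.93 for all, and 6 of 12 peaks were below 2, against 16.7% of all. Peaks spanning several exon blocks made up 10 of 12, against 57.5% of all.

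**Figure D4:**
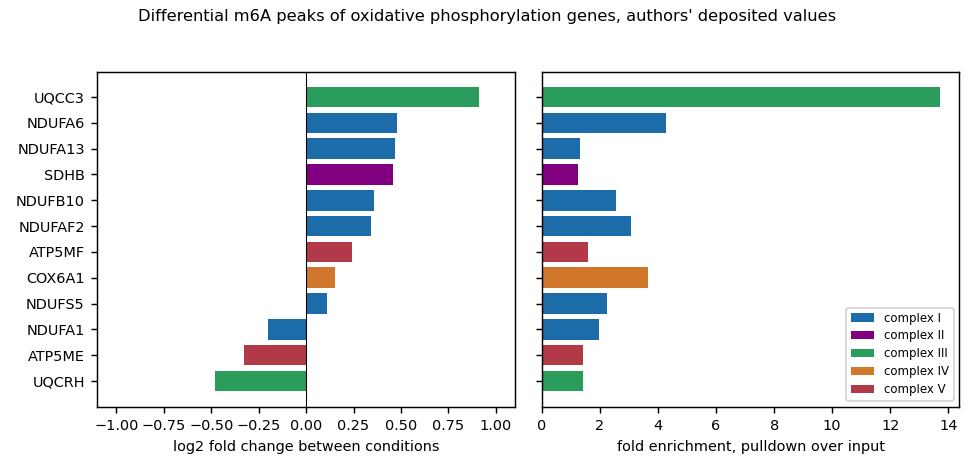
Log2 fold change between TRMT10A and control siRNA (left, sign as in the authors' deposited table) and fold enrichment of pulldown over input (right) of the 12 differential m6A peaks, 1 bar per gene, coloured by complex. No error bars can be given, since the table holds no values per sample. UQCC3 stands apart with 0.91 and an enrichment of 13.7, and the other peaks lie between -0.48 and 0.48.

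In complex I, the authors' deposited table gives the largest values for NDUFA6, with 0.48 (adjusted p = 0.0123), and NDUFA13, with 0.47 (adjusted p = 1.10e-04). NDUFB10 had 0.36 (adjusted p = 1.41e-07) and the assembly factor NDUFAF2 0.34 in the authors' deposited table. NDUFS5 had 0.11 and NDUFA1 -0.20 in the authors' deposited table. The enrichment in the authors' deposited table was 4.27 at NDUFA6 and 1.31 at NDUFA13, so values of like size come from peaks of unlike strength. SDHB was the complex II gene with a peak, at 0.46 and an enrichment of 1.24 in the authors' deposited table.

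In complex III the assembly factor UQCC3 had the largest value of all members. The authors' deposited table gives 0.91 (adjusted p = 2.51e-18) with an enrichment of 13.7, over 2 exon blocks of chromosome 11 from 62671654 to 62672521. UQCRH had the lowest value in the authors' deposited table, -0.48 (adjusted p = 6.31e-11) with an enrichment of 1.40, and it shares sequence with UQCRHL. UQCC3 had no site of either CLIP protein.

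The larger exon block of the UQCC3 peak has 569 bases, 300 of which could be read from a RefSeq window on the opposite strand. The letters GGACT were searched in it on both strands, since they are the most frequent form of the m6A consensus. They were found at 2 places on the sense strand of UQCC3 and at none on the opposite strand. Of all RefSeq windows of 300 bases, 3.88% hold them at 2 or more places on the window's own sense strand. The 2 places here lie on the other strand of the window, within an already listed m6A peak, so that share is not a like measure. Both places are shown (GRCh38.p14, plus strand, chr11:62672218-62672247 and chr11:62672268-62672297), with the motif in capitals.
UQCC3, first place: atgccaGGACTctccggggtcctgtgagct
UQCC3, second place: cccccaaaccctGGACTgactgctttaagg
The blocks of COX6A1, NDUFA13, NDUFB10 and SDHB could be read over 73, 65, 43 and 11 bases, and none of these stretches held the letters on the sense strand.

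COX6A1 was the complex IV gene with a differential peak. The authors' deposited table gives it 0.15 (adjusted p = 0.0141) and an enrichment of 3.66. In complex V, ATP5MF had 0.24 (adjusted p = 3.55e-04) and ATP5ME -0.33 (adjusted p = 0.00617) in the authors' deposited table, with enrichments of 1.58 and 1.40. Both encode small membrane subunits of ATP synthase, and neither had a CLIP site. Of the 11 ATP synthase genes with a CLIP site, 0 had a differential m6A peak, against 20.3% of all protein-coding genes with a CLIP site, and so few genes do not show a difference from that share.

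All 3 kinds of entry were found in 5 genes, NDUFA1, NDUFB10, SDHB, UQCRH and COX6A1, which is 5 of 63 against 7.12% of all protein-coding genes with an entry. Of the 12 m6A peaks, 5 held a CLIP site within their exon blocks, against 26.1% of the peaks of all protein-coding genes. They were those of NDUFA1, NDUFB10, NDUFS5, UQCRH and COX6A1. The COX6A1 peak held the most, 2 TRMT10A sites and 4 FTO clusters, over 572 bases of exon. The NDUFA1 and NDUFB10 peaks held 1 of each, the NDUFS5 peak 2 TRMT10A sites and the UQCRH peak 1. These 5 peaks have the values 0.15, -0.20, 0.36, 0.11 and -0.48 in the authors' deposited table for COX6A1, NDUFA1, NDUFB10, NDUFS5 and UQCRH, so both signs occur among them.

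Other genes of the pathway, outside the symbol rule, fell on either side of the shares of all protein-coding genes with an entry. Those shares were 49.9% for a TRMT10A site, 60.7% for an FTO cluster, 27.3% for both and 33.6% for a differential m6A peak. The lists below are small, and differences from these shares were not tested. Of 9 genes for cytochrome c, cytochrome c1, electron transfer flavoproteins and the phosphate and ADP/ATP carriers, 7 had an entry, 5 with a TRMT10A site, 5 with an FTO cluster and none with a differential m6A peak. The phosphate carrier SLC25A3 had 7 TRMT10A sites of up to 27, and the ADP/ATP carrier SLC25A5 had 2 of up to 49. Tricarboxylic acid cycle enzymes had an entry in 8 of 14, with TRMT10A sites in 3, FTO clusters in 6, both in 2 and a differential m6A peak in 2. In the authors' deposited table these peaks had 1.32 at IDH3B, a subunit of isocitrate dehydrogenase, and 0.58 at MDH2. Their enrichments in the authors' deposited table were 1.33 and 5.80. Malate dehydrogenase MDH2 had 5 TRMT10A sites of up to 42.

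Among assembly factors not matched by the rule, differential m6A peaks were the most frequent kind of entry. Of 48 listed, 17 had an entry. Of these 17, 12 had a differential m6A peak (70.6%, 46.9 to 86.7%), against 33.6% of all protein-coding genes with an entry. TRMT10A sites were found in 3 (17.6%), against 49.9%, and FTO clusters in 5 (29.4%), against 60.7%. None had both, against 27.3%. The rest of the 48 had no entry, so these shares do not describe the whole list, and they are tied together as above. In the authors' deposited table FOXRED1, a complex I assembly factor, had 1.44 with an enrichment of 2.18. TACO1, which activates translation of a mitochondrial complex IV subunit, had 1.34 with an enrichment of 1.38 in the authors' deposited table. ATPAF1, a complex V assembly factor, had -0.54 with an enrichment of 1.34 there. Enrichment differed widely in this list, and the COA7 peak, at -0.25, had 29.8 in the authors' deposited table. By gene, 7 had a positive and 6 a negative peak, COX14 having both. The transcriptional regulators of mitochondrial genes had an entry in 3 of 11, and 2 had a peak, PPRC1 with 2.52 and PPARGC1B with 0.52 in the authors' deposited table. Subunits encoded in mitochondrial DNA were not analysed here.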

How the data were processed

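The samples are m6A-seq and CLIP-seq libraries of HEK293T cells. The submitters' processing notes name hg38 and DESeq2, without role or version. No aligner is named in the labels or headers. The deposited m6A table gives, per the file headers, a log2 fold change, a fold enrichment ratio and a log10 adjusted p per peak. The deposited TRMT10A list gives a peak height as its score, and the deposited FTO list a count of conversion events per cluster, per the file headers. The TRMT10A list was called on pooled unique tags, per the file headers, and was annotated with HOMER.

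From these, genes were matched to a GRCh38.p14 table, and sites were given the gene in the peak name where its span holds them, otherwise that of the annotated transcript. Sites in small RNA genes were not counted for host genes. FTO clusters listed for several transcripts count once. Overlaps need at least 1 base on the same strand. Shares have 95% Wilson intervals, which treat genes, sites or clusters as independent. Gaps between sites include introns. Coordinates are hg38, counted from 1, but whether FTO starts count from 0 is not stated.

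Members and lists were chosen with earlier results of these data known. Named genes are those with an m6A peak and the 10 with the highest site or most events (ties included). The 5 with the most sites, shared positions and genes in all 3 tables were named as well. Core complex I subunits, complex II genes, complex IV isoform pairs, UQCRC2 and UQCRHL were named besides, after their values were seen. So were sites close to a cluster and other genes of the pathway. Values of some single genes are not reported here, though counts include them. Overlap steps were tested on simulated data. Python 3.11.15 and matplotlib 3.10.9 were used.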

Additional observations from a re-analysis of the deposited data

How the results depend on the processing

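Of 23 alternative settings for the counts of members and shared clusters, 17 stayed within a factor of 1.5. The count of 12 genes with a differential m6A peak fell to 0 when log2 values of at least 1 in size were required. Above the list medians, 27 of 50 genes kept a TRMT10A site, 20 of 44 an FTO cluster, 9 of 36 sites of both proteins, and 4 of 12 clusters shared a base. By construction, a cutoff at the list median removes a large part of any list. Of TRMT10A sites, 43.8% of the members' and 44.6% of all were above it. Of FTO clusters, these shares were 34.0% and 26.2%. A gap of up to 100 bases raised the 12 shared clusters to 40. Counting small RNA sites for host genes, taking the gene in the peak name alone, and counting FTO starts from 0 were chosen after seeing the data and gave 50, 51 and 12. Leaving out a replicate was not run, since no table gives values per sample. No paired analysis was possible because no column holds a single sample. Depth is unknown, so absence from a list does not show absence of binding or of m6A.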
